A study of Homo sapiens with 12 samples.

Results

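Type I interferon-stimulated genes were described in SBC5 cells, a human line of small cell lung cancer, with and without the PARP inhibitor olaparib and ionising radiation. The set was a given list of 48 gene symbols, matched by symbol alone. All 48 matched a row of the deposited table, which held 60605 genes after copies on the Y chromosome were merged. RNA was sequenced from 12 libraries in 4 groups of 3. All cells were labelled wild type. The groups were vehicle (dimethyl sulfoxide without radiation), olaparib at 1 µM, radiation (dimethyl sulfoxide and 4 Gy of gamma rays) and the combination (1 µM olaparib and 4 Gy). Olaparib or its solvent was given 2 hours before irradiation and cells were collected after 3 days. SBC5 is a single tumour line grown alone, so interferon from immune cells was not part of the model.

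Type I interferons are secreted proteins that signal through the receptor pair IFNAR1 and IFNAR2 and the kinases JAK1 and TYK2. The kinases phosphorylate STAT2, which works with IRF9 in a complex that binds the interferon-stimulated response element in the promoters of target genes. The targets include sensors of foreign RNA, enzymes that block translation or degrade RNA, the ubiquitin-like protein ISG15, and proteins that hold viruses at membranes. Many of them are transcribed at a low level without interferon, and tumour cells differ in that level.

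The promoters of the listed genes carried the letters of this element more often than promoters at large. RefSeq promoter windows of 300 bases (250 before and 50 after the annotated start, build GRCh38.p14) were at hand for 39 of the 48 genes. The core of the element, GAAA and GAAA with any 2 bases between them, on either strand, was found in 27 of these 39 genes (69.2%), against 4.38% of 27305 genes in the same table. The gamma-activated site TTCNNNGAA was found in 13 of the 39 (33.3%), against 9.38% of all genes. The 12 genes without the first motif in the window were ADAR, CMPK2, HERC6, IFI35, IRF1, IRF9, OAS1, SAMD9L, SP110, STAT2, UBE2L6 and XAF1. The windows of IRF7, IFIT2, OAS2, OASL, DHX58, USP18, TRIM22, IFITM2 and MX2 were not in the table. A match of these letters is a description and not a site shown to be bound.

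Stretches of 60 bases around the motif are shown for 8 genes that span the measured range, with the motif (overlapping copies joined, either strand) in capitals. EIF2AK2, HERC5 and BST2 were among the abundant genes of the list, ISG15 and IFIT1 lay in the middle, and RTP4, EPSTI1 and IFI44 were at or near 0 counts.
ISG15, chr1:1013359-1013418, plus strand: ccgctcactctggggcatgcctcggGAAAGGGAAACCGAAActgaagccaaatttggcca
IFIT1, chr10:89392482-89392541, plus strand: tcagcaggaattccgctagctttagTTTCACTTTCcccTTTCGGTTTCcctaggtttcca
EIF2AK2, chr2:37156952-37157011, minus strand: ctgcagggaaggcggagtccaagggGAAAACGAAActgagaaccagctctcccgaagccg
BST2, chr19:17405726-17405785, minus strand: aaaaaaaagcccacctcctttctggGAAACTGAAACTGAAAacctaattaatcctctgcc
HERC5, chr4:88456969-88457028, plus strand: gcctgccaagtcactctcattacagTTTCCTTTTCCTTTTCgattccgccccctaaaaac
RTP4, chr3:187368318-187368377, plus strand: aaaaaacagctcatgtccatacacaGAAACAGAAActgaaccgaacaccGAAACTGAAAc
EPSTI1, chr13:42992257-42992316, minus strand: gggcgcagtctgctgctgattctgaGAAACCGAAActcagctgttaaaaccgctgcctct
IFI44, chr1:78649746-78649805, plus strand: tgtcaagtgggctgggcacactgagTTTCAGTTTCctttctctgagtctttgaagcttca
The motif stood in promoters at both ends of the range. Of the 27 genes that held it, 8 were under 1 scaled count per 1000000 in vehicle cells and the highest was at 266. Of the 12 without it, 2 were under 1 and the highest was at 262.

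Levels are given as counts per 1000000 (CPM), scaled with trimmed mean (TMM) factors so that libraries can be compared. Total counts per library ran from 14.3 to 38.8, in units of 1000000. The mitochondrial ribosomal RNA MT-RNR2 held between 23.4% (olaparib 3) and 32.2% (olaparib 1) of them, so fewer counts were left for other genes. In 3 libraries, olaparib 2, olaparib 3 and radiation 3, genes that are otherwise near silent carried counts. 381 olfactory receptor genes summed to 1875.3, 2079.1 and 914.6 CPM there, against 354.1 to 500.8 in the other 9. These 3 libraries were kept out of the main comparisons and are described apart, which left 3 vehicle, 1 olaparib, 2 radiation and 3 combination libraries. The labels do not say that libraries of a group came from separate cultures, so p-values measure the spread between libraries, which may be technical. In bulk RNA, fewer cells expressing a gene and less RNA per cell cannot be told apart. Of 8 markers of small cell lung cancer, YAP1 (120 CPM in vehicle) and SYP (24.1) were the most abundant, and INSM1 was at 0.

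The baseline of the list was carried by a small number of genes. In vehicle cells 11 of the 48 genes were at 10 CPM or more, 24 lay between 1 and 10, 12 were below 1, and RTP4, a chaperone of receptor trafficking, had no counts in any of the 9 libraries. EIF2AK2 (the kinase PKR, which halts translation on binding double-stranded RNA) and ADAR (which edits adenosine to inosine in double-stranded RNA) were the only members above 100 CPM. Between them they held 58.4% to 61.5% of the counts of all 48 genes in each of the 9 libraries. Per kilobase of annotated exon the order in vehicle was ADAR (35.7 CPM per kilobase), EIF2AK2 (25.8), MX2 (16.2), BST2 (15.7) and OAS1 (11.5). With the longest transcript as the length, OAS1 (19.7) passed MX2 (16.2) and BST2 (15.7), so the order of these 3 depends on the length used.

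**Figure D1:**
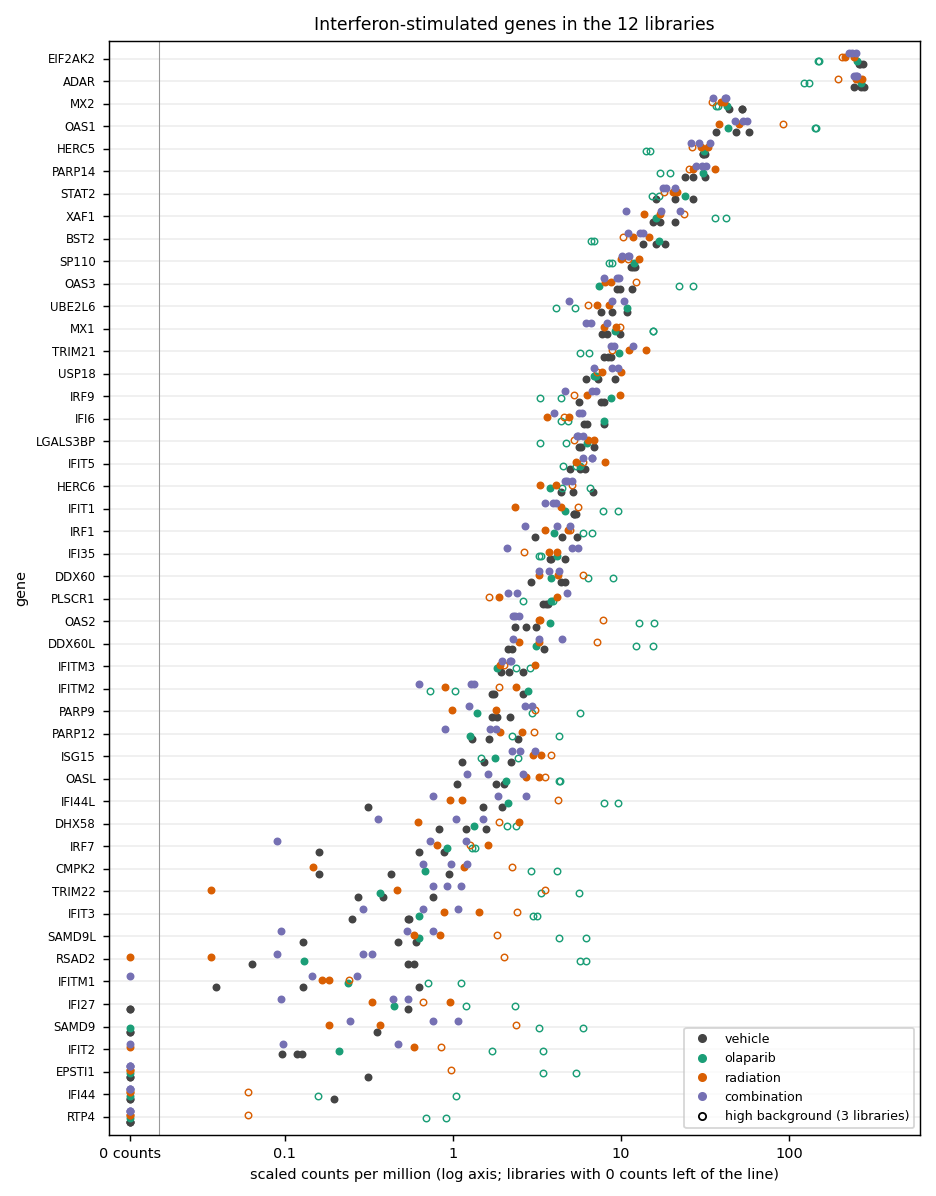
Scaled counts per 1000000 (log axis) of the 48 genes, ordered by the vehicle mean, in each of the 12 libraries; filled points are the 9 libraries of the main comparisons and open points the 3 libraries of high background. EIF2AK2 and ADAR stand above 100, and many genes at the bottom have open points to the right of all filled ones.

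The factors that carry the interferon signal were present in vehicle cells. STAT2 measured 16.0, 21.0 and 26.6 CPM in vehicle 1, 2 and 3, 24.1 in olaparib 1, 21.5 and 20.3 in radiation 1 and 2, and 18.5, 20.8 and 17.7 in the combination. IRF9, its DNA-binding partner, was at 5.64, 7.88 and 7.62 in vehicle, 8.73 in olaparib, 6.23 and 9.91 under radiation and 6.72, 7.08 and 4.61 in the combination. In the combination against vehicle the libraries overlapped for both genes, and olaparib 1 was above every vehicle library for IRF9. IRF1, an activator that is itself induced by interferon, was at 5.45, 3.07 and 4.45 CPM in vehicle, 3.97 in olaparib, 4.83 and 3.52 under radiation and 4.97, 2.69 and 4.13 in the combination. IRF7, which amplifies interferon production, was low and uneven, at 0.627, 0.887 and 0.16 CPM in vehicle, 0.920 in olaparib, 0.8 and 1.61 under radiation and 0.731, 0.0897 and 1.19 in the combination. None of these 4 genes passed the test in any comparison. In the combination against vehicle the log2 change of STAT2 was -0.16 (standard error, SE, 0.144) and that of IRF9 -0.20 (SE 0.232). With scaling by library size alone these 2 values were 0.05 and 0.00.

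The question the study's groups pose for these genes is whether radiation, or olaparib before radiation, changes the interferon programme within the tumour cell. No listed gene rose by the test in the combination against vehicle. Of 45 genes with enough counts to be tested (all but RTP4, IFI44 and EPSTI1), 0 were higher and 1 was lower at an adjusted p under 0.05 (edgeR quasi-likelihood test with Benjamini-Hochberg adjustment over 30967 genes), where 4.8% of all tested genes were called (1.53% higher and 3.26% lower, or 475 and 1010 genes, against 2275 and 319 with scaling by library size alone). The single call is 2.22% of the 45. DESeq2 called the same gene and limma-voom called 0. At an unadjusted p under 0.05, edgeR had 0 higher and 3 lower (EIF2AK2, BST2 and MX2), with 6.29% of all genes past that line as higher and 8.06% as lower. With library size alone the same line had 4 higher (ISG15, PARP14, SAMD9 and TRIM21) and 0 lower, beside 16.2% and 2.68% of all genes, so the balance of the members turns with the scaling. The log2 change was above 0 in 19 genes and below 0 in 26. Its median was -0.08, beside 0.02 over all tested genes, and scaling by library size alone gave 0.12 beside 0.22, so the sign of the members' median depends on the scaling while its place below that of all genes was found with both.

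How large a change could have been missed differs by gene. The 95% interval of the combination against vehicle lay within 1 log2 unit of 0 for 26 of the 45 genes. It lay within a 1.5-fold change for 9. For genes below 1 CPM the intervals were wide: that of IFIT2 ran from -2.75 to 4.20 and that of SAMD9L from -1.60 to 2.03.

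**Figure D2:**
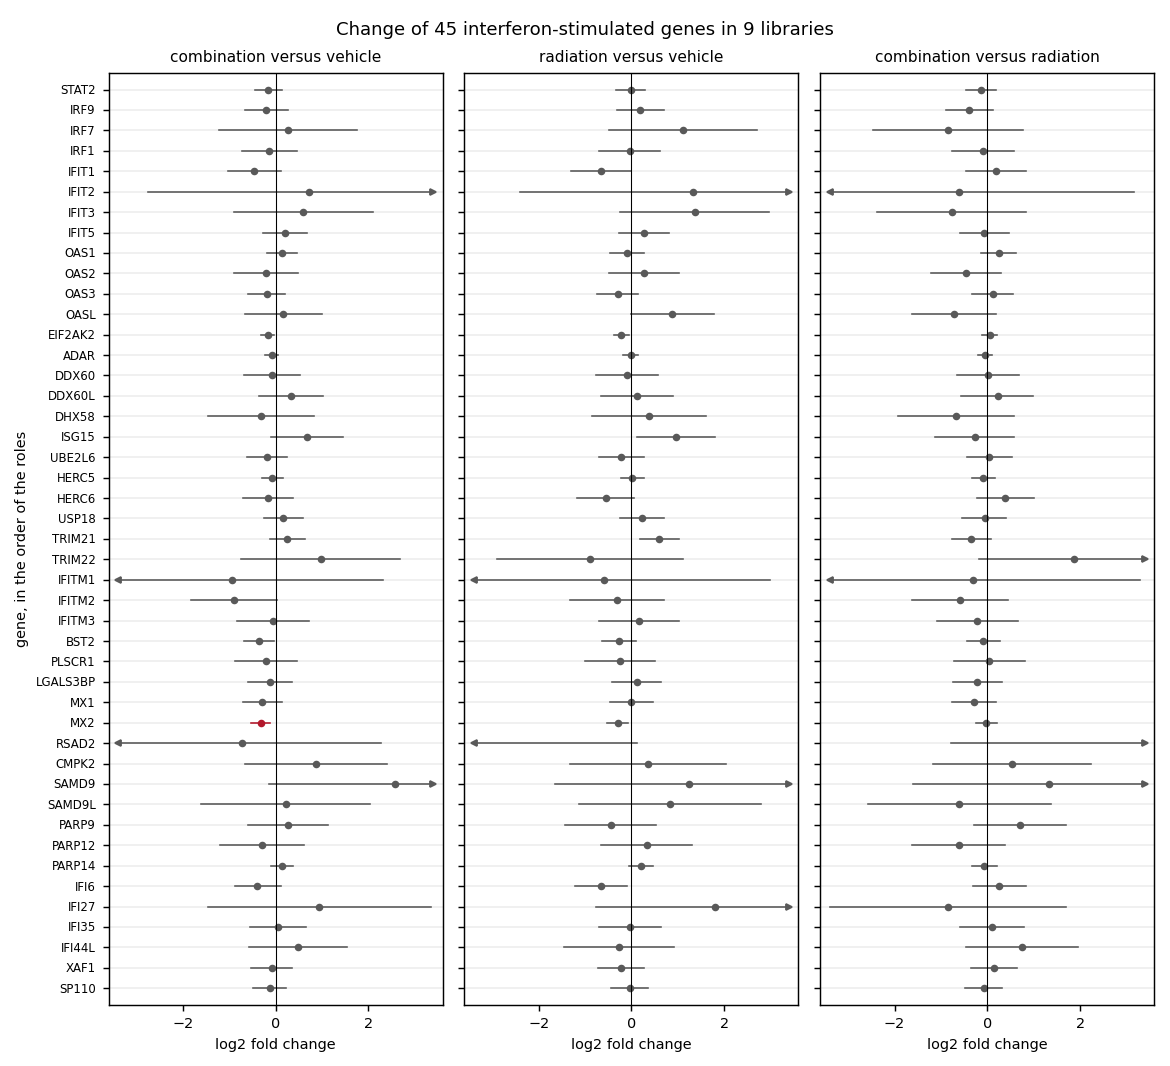
Log2 fold change with 95% interval (lines; arrowheads where the interval runs beyond the axis) of the 45 tested genes in 3 comparisons of the 9 libraries; the red line marks the call at an adjusted p under 0.05, and the RSAD2 points at -4.16 and 3.44 lie outside the axis. Only the interval of MX2 in the combination against vehicle is red, and intervals widen for the genes of low level.

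MX2 was the gene called. It encodes a dynamin-like GTPase that restricts retroviruses at the nuclear envelope. Its level was 43.5, 52.5 and 51.9 CPM in vehicle 1, 2 and 3, 42.8 in olaparib 1, 39.3 and 40.8 in radiation 1 and 2, and 41.3, 42.1 and 35.0 in combination 1, 2 and 3. All 3 combination libraries lay below all 3 vehicle libraries, and vehicle 1 was close to the highest of the combination. MX2 fell in the combination by 0.32 on the log2 scale (SE 0.102, 95% interval -0.53 to -0.12, adjusted p = 0.0485 by edgeR). The adjusted p without single libraries was 0.256 without vehicle 2, 0.201 without vehicle 3, 0.0606 without olaparib 1, 0.0703 without combination 1 and 0.3 without combination 3, so the call rested on each of these libraries. Over 19 alternative fits it passed in 6 and did not in 13, with a log2 change between -0.4 and -0.12. The combination libraries were shallower than vehicle (19.4 to 20.6 against 27.0 to 34.1, in units of 1000000 counts) and had higher olfactory receptor sums (460.9 to 500.8 against 354.1 to 431.7 CPM), whose part in the MX2 value was not tested in the 9 libraries; in all 12 with that sum as a covariate the value was -0.29 and did not pass (adjusted p = 0.15, edgeR). Radiation alone gave a similar value, -0.30 (SE 0.114), which did not pass (adjusted p = 0.265, edgeR).

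Its paralog MX1, which blocks influenza and other viruses in the cytoplasm, was at 9.88, 7.69 and 8.23 CPM in vehicle, 9.25 in olaparib, 9.27 and 7.89 under radiation and 6.58, 6.19 and 8.27 in the combination. The ranges overlapped, with a log2 change of -0.29 (SE 0.211, adjusted p = 0.623, edgeR) in the combination, and -0.09 by library size alone. RSAD2 (viperin), its neighbour CMPK2, SAMD9 and SAMD9L were each below 1 CPM in vehicle and none passed the test. SAMD9 had no counts in vehicle 2, vehicle 3 and olaparib 1 and 0.353 CPM in vehicle 1, against 0.244, 1.08 and 0.760 in the combination. Its combination and vehicle libraries overlapped (adjusted p = 0.394, edgeR). Reads may be shared between SAMD9 and SAMD9L and between other close relatives in the list (the IFIT, IFITM and OAS genes, DDX60 with DDX60L), and the counts of 34 of the 48 genes held fractions in at least 1 library, so how such reads were divided is part of these values.

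Among the RNA sensors and translation inhibitors, 13 genes were listed and tested and 0 passed in any comparison. EIF2AK2 measured 263, 274 and 259 CPM in vehicle, 251 in olaparib, 243 and 213 under radiation and 235, 225 and 248 in the combination. Every treated library was below every vehicle library. The mean was 266 in vehicle (SD 7.95, n = 3), 228 in radiation (SD 21.6, n = 2) and 236 in the combination (SD 11.5, n = 3). The log2 change was -0.17 in the combination (SE 0.0696, 95% interval -0.31 to -0.03, adjusted p = 0.189, edgeR) and -0.22 under radiation (SE 0.0781, adjusted p = 0.212). The 2 comparisons share the vehicle libraries. With scaling by library size alone the combination value was 0.03 and the radiation value -0.11, so the direction in the combination is not fixed by these data. ADAR was steadier, at 242, 266 and 279 CPM in vehicle, 265 in olaparib, 269 and 248 under radiation and 253, 242 and 248 in the combination. The groups overlapped, and the 95% interval of its combination change was -0.22 to 0.05. By library size alone the ADAR value was 0.12.

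The oligoadenylate synthetases make the second messenger that activates RNase L, and differed in level among themselves. OAS1 was at 57.7, 48 and 36.8 CPM in vehicle, 43.4 in olaparib, 38.1 and 50.4 under radiation and 56.1, 47.7 and 52.7 in the combination. OAS3 lay lower, at 11.6, 9.91 and 9.51 in vehicle, 7.38 in olaparib, 8.67 and 8.07 under radiation and 9.45, 7.93 and 9.74 in the combination. The 6 treated libraries all lay within the vehicle range of OAS1, and OAS3 was lower in olaparib 1 than in any other of the 9. OAS2 was at 3.10, 2.34 and 2.72 CPM in vehicle, 3.78 in olaparib, 3.30 and 3.23 under radiation and 2.34, 2.29 and 2.47 in the combination. OASL, which lacks synthetase activity, was at 2, 1.80 and 1.06 in vehicle, 2.08 in olaparib, 2.73 and 3.23 under radiation and 1.22, 2.60 and 1.62 in the combination. Both radiation libraries were above vehicle for OAS2 and OASL, and the combination libraries overlapped vehicle for both. OASL had the larger radiation change, 0.88 on the log2 scale (SE 0.453, adjusted p = 0.536, edgeR).

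The IFIT proteins bind viral RNA ends. IFIT1 measured 5.37, 5.22 and 5.28 CPM in vehicle, 4.65 in olaparib, 4.37 and 2.35 under radiation and 3.51, 4.08 and 3.94 in the combination. Its vehicle libraries were almost equal and all treated libraries lay below them. The log2 change was -0.46 in the combination (SE 0.287, adjusted p = 0.517, edgeR) and -0.65 under radiation (SE 0.323, adjusted p = 0.509). By library size alone these were -0.26 and -0.55. IFIT3 had 0.549, 0.253 and 0.544 CPM in vehicle, 0.631 in olaparib, 1.43 and 0.881 under radiation and 0.292, 1.08 and 0.665 in the combination. Both radiation libraries of IFIT3 lay above vehicle, opposite in sign to IFIT1, and the change did not pass (log2 change 1.36, SE 0.806, adjusted p = 0.626, edgeR). IFIT2 was at 0.118, 0.127 and 0.096 CPM in vehicle, 0.21 in olaparib, 0 and 0.587 under radiation and 0.0974, 0 and 0.475 in the combination. The treated libraries lay on both sides of vehicle, with 3 or 4 counts in each vehicle library and 0 to 16 in a treated one. DDX60L, a relative of the helicase DDX60, was at 3.49, 2.25 and 2.14 CPM in vehicle, 3.10 in olaparib, 3.23 and 2.46 under radiation and 4.43, 3.23 and 2.28 in the combination. The groups overlapped, with a combination change of 0.34 (SE 0.347). The other genes of this class, IFIT5, DDX60 and DHX58, had combination changes between -0.31 and 0.20.

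ISG15, enzymes that attach or remove it, and the ubiquitin ligases TRIM21 and TRIM22 made a class of 7 genes, of which 0 passed. ISG15 itself measured 2.23, 1.14 and 1.54 CPM in vehicle, 1.79 in olaparib, 3.00 and 3.34 under radiation and 2.24, 3.09 and 2.52 in the combination. All 5 irradiated libraries were above the vehicle libraries, the lowest of them, combination 1, by very little. The log2 change was 0.96 under radiation (SE 0.423, 95% interval 0.11 to 1.80, adjusted p = 0.418, edgeR) and 0.68 in the combination (SE 0.39, 95% interval -0.10 to 1.46, adjusted p = 0.454). USP18, which removes ISG15 and damps receptor signalling, was at 7.33, 9.15 and 6.15 CPM in vehicle, 7.10 in olaparib, 9.97 and 7.67 under radiation and 6.87, 8.88 and 9.60 in the combination. HERC5, the main ligase for ISG15, was held within a narrow band, with a mean of 31.0 CPM in vehicle (SD 0.557, n = 3), 31.5 in radiation (SD 2.18, n = 2) and 29.6 in the combination (SD 3.73, n = 3). The 95% interval of the HERC5 combination change was -0.29 to 0.16.

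HERC6, a relative of HERC5, was at 6.78, 4.37 and 5.15 CPM in vehicle, 3.76 in olaparib, 3.30 and 4.11 under radiation and 4.77, 4.66 and 5.08 in the combination. TRIM21, a cytosolic antibody receptor and ubiquitin ligase, was chosen after its values were seen, because it had the smallest adjusted p of the list under radiation. It measured 8.31, 7.88 and 8.67 CPM in vehicle, 9.65 in olaparib, 14 and 11.1 under radiation and 9.06, 11.8 and 8.74 in the combination. All treated libraries were above vehicle, combination 3 by the least. The TRIM21 log2 change was 0.60 under radiation (SE 0.21, 95% interval 0.18 to 1.02, adjusted p = 0.195, edgeR) and 0.25 in the combination (SE 0.193).

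**Figure D3:**
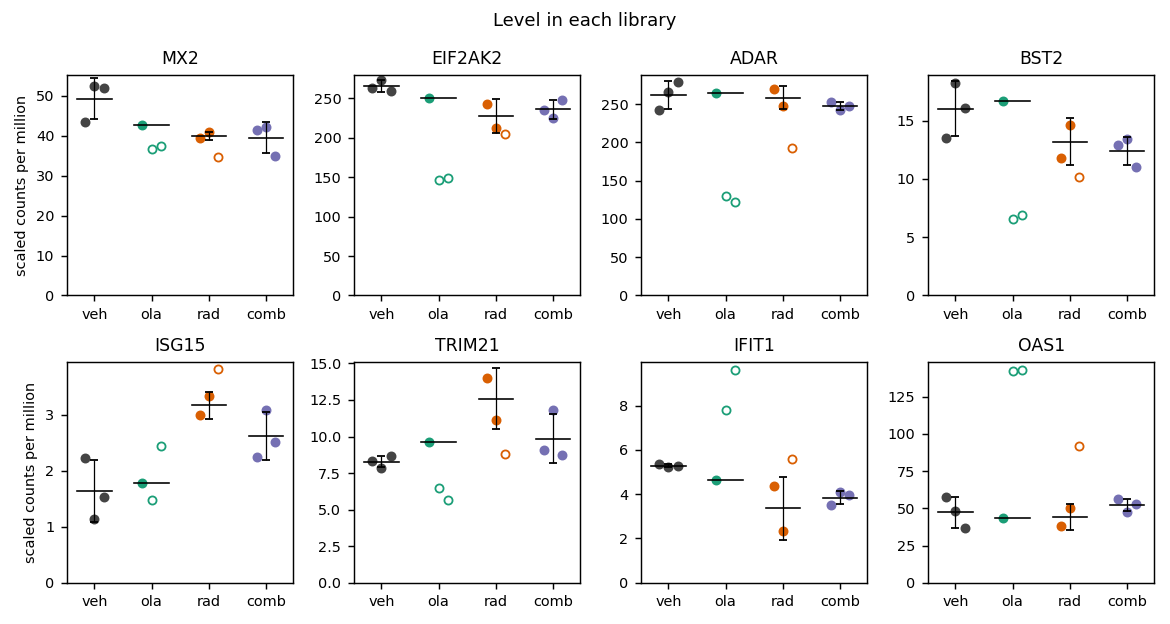
Scaled counts per 1000000 of 8 genes in each library, with group mean (bar) and SD (whiskers) over the libraries used in the main comparisons (vehicle 3, olaparib 1, radiation 2, combination 3); open points are the 3 libraries of high background, which enter no mean. MX2 lies lower in the combination than in vehicle, the irradiated ISG15 libraries lie above vehicle, and OAS1 stands apart in the open points alone.

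Of 7 membrane and secreted products 6 were tested and 0 passed. BST2 (tetherin), which holds budding virus at the cell surface, was at 13.5, 18.2 and 16.1 CPM in vehicle, 16.7 in olaparib, 11.8 and 14.6 under radiation and 12.9, 13.4 and 11 in the combination. The combination libraries lay below the lowest vehicle library, combination 2 by very little. The log2 change of BST2 was -0.36 (SE 0.163, 95% interval -0.69 to -0.04, adjusted p = 0.259, edgeR), and -0.16 by library size alone. The IFITM proteins block virus entry at endosomes. IFITM2 was at 1.76, 1.71 and 2.62 CPM in vehicle, 2.79 in olaparib, 0.9 and 2.38 under radiation and 0.633, 1.34 and 1.28 in the combination. IFITM3 was level, at 2.16, 2.60 and 1.92 in vehicle, 1.84 in olaparib, 1.90 and 3.08 under radiation and 2.19, 1.97 and 2.23 in the combination. IFITM2 in the combination was below every vehicle library (log2 change -0.90, SE 0.468, adjusted p = 0.379, edgeR) while IFITM3 overlapped (-0.06, SE 0.393), and the pair is similar enough in sequence that shared reads may have been split between them.

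The ADP-ribosyltransferases of the list are relatives of the olaparib targets PARP1 and PARP2 and are induced by interferon. PARP14 was the most abundant, with 23.8, 26.8 and 31.5 CPM in vehicle, 30.5 in olaparib, 36.1 and 26.8 under radiation and 30.4, 31.8 and 28.0 in the combination. PARP9 was at 2.19, 1.84 and 1.70 in vehicle, 1.39 in olaparib, 1.80 and 0.991 under radiation and 2.68, 2.96 and 1.24 in the combination. PARP12 was at 2.43, 1.30 and 1.63 in vehicle, 1.26 in olaparib, 2.57 and 1.91 under radiation and 1.80, 0.897 and 1.66 in the combination. The groups overlapped for each of the 3 genes in the combination against vehicle, and none passed.

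Of the remaining genes, IFI6, a mitochondrial and reticulum protein that limits apoptosis, was at 6.04, 7.88 and 6.24 CPM in vehicle, 7.96 in olaparib, 4.93 and 3.63 under radiation and 3.99, 5.83 and 5.61 in the combination. The irradiated libraries were below vehicle with or without olaparib, with a log2 change of -0.65 under radiation (SE 0.283, adjusted p = 0.406, edgeR) and -0.39 in the combination (SE 0.25, adjusted p = 0.547). By library size alone the IFI6 values were -0.54 and -0.18. IFI44L scattered widely, at 0.314, 1.96 and 1.5 CPM in vehicle, 2.13 in olaparib, 0.967 and 1.14 under radiation and 1.85, 0.762 and 2.71 in the combination. IFI44 and EPSTI1 had counts in vehicle 1 alone among the 9 libraries, 5 and 8 counts, and 0 in the other 8, where 3 counts, the limit that 0 allows, correspond to 0.0788 to 0.146 CPM. XAF1 (17.8 CPM in vehicle, SD 2.83, n = 3) and SP110 (11.7, SD 0.396, n = 3) were more abundant, with combination changes of -0.08 (SE 0.21) and -0.13 (SE 0.177).

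Libraries that did not overlap between the combination and vehicle were found for 3 genes in the higher direction (ISG15, TRIM21 and TRIM22) and 7 in the lower (IFIT1, EIF2AK2, IFITM2, BST2, MX2, IFI6 and SP110). These are 6.67% and 15.6% of the 45 genes, against 9.15% and 10.4% of all tested genes. Neither share was tested against that of all genes.

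Radiation alone gave 0 calls among the 45 genes with edgeR, DESeq2 and limma-voom, against 1.1% of all genes with edgeR. At an unadjusted p under 0.05, edgeR had 2 higher (ISG15 and TRIM21) and 4 lower (IFIT1, EIF2AK2, MX2 and IFI6), where 4.08% and 5.59% of all genes lay. With library size alone there were 4 higher (ISG15, OASL, PARP14 and TRIM21) and 0 lower, beside 8.99% and 2.95% of all genes. The median log2 change of the 45 genes was -0.02, beside -0.03 over all genes, and the intervals of 22 lay within 1 log2 unit of 0. Adding olaparib to radiation, the combination against radiation, gave 0 calls with each of the 3 tools, 0 genes at an unadjusted p under 0.05 with edgeR (9.54% of all genes) and a smallest adjusted p of 0.587, for TRIM22. All genes had 0.568% called in that comparison, and the medians were -0.07 for the list and 0.03 for all. TRIM22, a ubiquitin ligase that restricts retroviruses, was at 0.274, 0.760 and 0.384 CPM in vehicle, 0.467 and 0.0367 under radiation and 0.925, 1.12 and 0.760 in the combination. Its values rest on few counts.

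Olaparib alone could be read in 1 library, whose spread was assumed to be that of the other groups. The test gave 0 calls with edgeR, DESeq2 and limma-voom (0.0678% of all genes with edgeR), 0 genes at an unadjusted p under 0.05 (3.34% of all) and a median log2 change of 0.04 beside -0.02. The interaction, which asks whether olaparib acts differently with radiation than without it, also gave 0 calls with the 3 tools (0.2% of all genes with edgeR) and 0 genes at an unadjusted p under 0.05 with edgeR (7.18% of all), with medians of -0.08 and 0.07. It rests on the same olaparib library, and the intervals of 13 of 45 genes lay within 1 log2 unit of 0. The 3 comparisons against vehicle share their controls and are not independent of each other.

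In the 2 libraries of olaparib set apart, many listed genes lay outside the range of the other 9, as did many of all genes. In both, 23 of the 48 genes (47.9%) were above every one of the 9 other libraries, where 41.0% of 56116 genes with counts were, and 9 (18.8%) were below every one, against 13.0% of all. Singly, 25 genes lay above the 9 in olaparib 2 (51.1% of all genes), 23 in olaparib 3 (51.8%) and 21 in radiation 3 (33.0%). OAS1 was at 142 and 143 CPM in olaparib 2 and 3 and 91.6 in radiation 3, which was 2.95, 2.98 and 1.91 times the median of the 9. OAS2 reached 15.7, 12.8 and 7.81 CPM (5.76, 4.7 and 2.87 times). RSAD2 reached 6.15, 5.72 and 2 CPM, 46.8, 43.5 and 15.2 times a median of 0.131 CPM. RTP4, silent elsewhere, had 18, 23 and 1 counts. Radiation 3 was the lowest of the 3 libraries for each of these 4 genes. For TRIM22 it was not, with 3.33, 5.60 and 3.51 CPM in olaparib 2, olaparib 3 and radiation 3.

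Several abundant members were lower in the same libraries. EIF2AK2 was at 147, 149 and 205 CPM in olaparib 2, olaparib 3 and radiation 3, which was 0.594, 0.602 and 0.825 times the median of the 9. ADAR was at 0.516, 0.481 and 0.765 times its median and HERC5 at 0.456, 0.483 and 0.861 times. Of the 13 genes under 1 CPM in vehicle, 11 were above the 9 in both olaparib libraries (all but IRF7 and IFI44). These are 84.6% of the 13, where 50.1% of the 38115 genes of that level did so, genes without vehicle counts included. Of the 11 genes at 10 CPM or more, 6 were below (54.5%) and 3 (OAS1, OAS3 and XAF1) were above (27.3%), beside 75.6% and 5.9% of the 8358 genes of that level. The difference between these shares was not tested. ISG15, at 1.47 and 2.45 CPM in the 2 olaparib libraries, and MX2, at 36.6 and 37.5, stayed within the range of the 9 libraries. In radiation 3 both lay outside it, ISG15 at 3.81 above the highest (3.34) and MX2 at 34.7 just under the lowest (35.0). The olfactory receptor sum was raised in these 3 libraries, and its part in the values of the listed genes was not tested gene by gene. Radiation 3 was also the only irradiated library of the 3, so radiation and the background cannot be told apart in its values. Marker sums differed too: those of 3 endothelial genes ran from 8.42 to 22.0 CPM in the 3 libraries against 1.13 to 3.25 in the 9, and those of 3 epithelial genes from 9.51 to 12.8 against 1.13 to 3.41. The sum of 4 fibroblast genes ran from 24.0 to 43.9 against 15.2 to 20.7, while COL1A1 among them was at 8.12, 13.8 and 9.51 against 11.7 to 17.3. Sums of 9 leukocyte genes (57.3 to 72.2 against 82.3 to 102) and of 8 genes of small cell lung cancer (87.6 to 112 against 102 to 153) were lower or at the lower end.

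**Figure D4:**
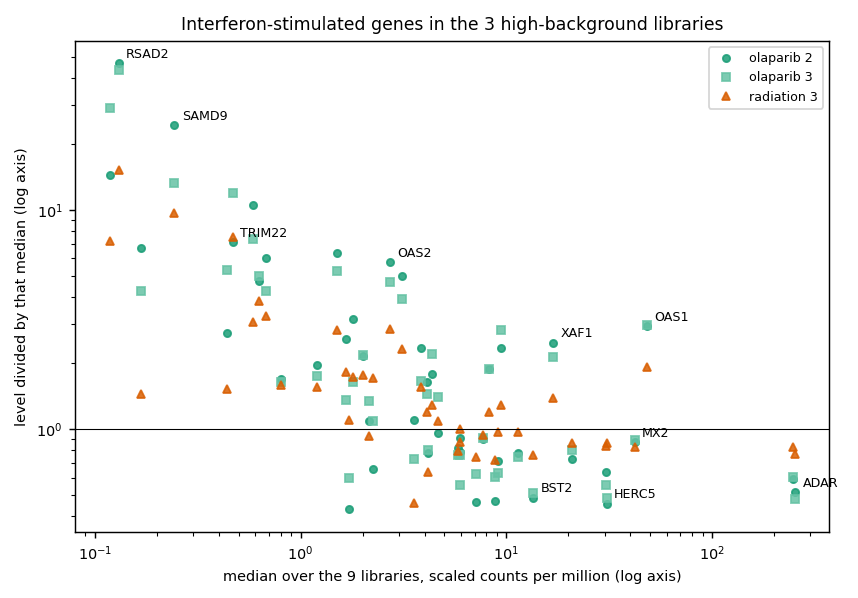
Level of each gene in olaparib 2, olaparib 3 and radiation 3 divided by its median over the 9 other libraries (log axis), against that median in scaled counts per 1000000 (log axis); 3 genes with a median of 0 are not drawn, and labels stand beside olaparib 2. Genes of low level lie above 1, up to RSAD2 at 46.8, while OAS1 at 2.95 stands above the other abundant genes, of which HERC5 and ADAR lie below 1.

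With all 12 libraries in the fit, olaparib against vehicle had a median log2 change of 0.48 over 46 tested genes, beside 0.39 over all genes. With edgeR 0 of the 46 were called (0.0% of all genes), and 14 higher and 4 lower lay at an unadjusted p under 0.05, where 29.4% of all genes did. OAS1 was then at 1.18 (SE 0.388), OAS2 at 1.96 (SE 0.453) and IFI44L at 2.34 (SE 0.754), each with an adjusted p of 0.131 by edgeR, while EIF2AK2 was at -0.55 (SE 0.231, adjusted p = 0.152). In olaparib 1 alone, OAS1 (43.4 CPM) was within the vehicle range and the log2 change was -0.13. With the olfactory receptor sum as a covariate in the 12-library fit, the median over the list was 0.04, beside -0.06 over all genes, and 0 were called.

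The signalling chain upstream of these genes was read from a further list of 76 genes, of which 50 could be tested. Of 21 interferon genes, 17 had no counts in any of the 9 libraries, among them IFNG and all 13 genes for interferon alpha. IFNB1, the interferon that most cells make first, had 3 counts in olaparib 1 and 0 in the other 8, which allows at most 0.146 CPM in any of them. Only IFNK, at 0.231 CPM in vehicle (SD 0.208, n = 3), had enough counts to be tested. The receptor subunits IFNAR1 (25.9 CPM, SD 5.26, n = 3) and IFNAR2 (7.19, SD 0.77, n = 3) and the kinases JAK1 (46.0, SD 1.36, n = 3) and TYK2 (13.4, SD 1.06, n = 3) were present in vehicle. Of 9 receptors and kinases 8 were tested and 0 passed. The combination change was -0.13 for IFNAR1 (SE 0.133), 0.01 for IFNAR2 (SE 0.226), 0.14 for JAK1 (SE 0.0962) and -0.16 for TYK2 (SE 0.167). Under radiation JAK1 was at 0.29 (SE 0.106, adjusted p = 0.229, edgeR), JAK2 at 0.34 (SE 0.131, adjusted p = 0.291) and IFNGR1 at 0.35 (SE 0.132, adjusted p = 0.274), each at an unadjusted p under 0.05. By library size alone JAK1 passed, at 0.34 in the combination (adjusted p = 0.0125, edgeR) and 0.40 under radiation (adjusted p = 0.0184).

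In the rest of that list, MAVS passed in the combination and ZC3HAV1 in both the combination and radiation against vehicle. These are 2 of the 50 tested genes (4.0%) in the combination, beside 4.8% of all genes, and 1 of 50 (2.0%) under radiation, beside 1.1%. MAVS, the mitochondrial adaptor of the RNA sensors, was at 46.6, 47.3 and 49.9 CPM in vehicle, 44.3 in olaparib, 43.8 and 39.3 under radiation and 40.2, 38.6 and 35.9 in the combination. It fell by 0.33 on the log2 scale (SE 0.0996, adjusted p = 0.0383, edgeR). That call was kept in 9 of 19 alternative fits and was lost on leaving out any single vehicle or combination library, with adjusted p-values from 0.0521 to 1.0 over the 10 fits that lost it. The log2 change with a library left out was between -0.36 and -0.29, and by library size alone it was -0.13 (adjusted p = 0.558, edgeR).

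ZC3HAV1 (the zinc finger antiviral protein ZAP, which marks CpG-rich RNA for decay) measured 66.9, 73.0 and 66.5 CPM in vehicle, 70.1 in olaparib, 52.1 and 47.8 under radiation and 50.1, 56.0 and 52.6 in the combination. All 5 irradiated libraries lay below the 4 that were not irradiated. ZC3HAV1 fell by 0.38 on the log2 scale in the combination (SE 0.09, adjusted p = 0.00347, edgeR) and by 0.46 under radiation (SE 0.101, adjusted p = 0.00445). The combination call was kept in 15 of 19 alternative fits and lost in 4, among them the fit without vehicle 2 (-0.33, adjusted p = 0.0525, edgeR) and that by library size alone, where the change was -0.18 (adjusted p = 0.255). The radiation call was kept in 16, and lost without vehicle 2 (-0.42, adjusted p = 0.063, edgeR), without radiation 2 (-0.39, adjusted p = 0.14) and with all 12 libraries (-0.53, adjusted p = 0.934). In the 3 libraries set apart ZC3HAV1 was at 40.7, 38.8 and 43.2 CPM. Of the other 18 tested genes in its class of further interferon-stimulated genes 0 passed, and CXCL10 and CXCL11, the chemokines induced by interferon, had no counts in the 9 libraries.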

How the data were processed

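RNA was sequenced from 12 SBC5 libraries (stranded total RNA, per the labels' protocols). The authors deposited estimated counts (expected counts, with fractions where reads are shared between genes; 68.8% of values were whole to within 1e-06). Per the submitters' processing notes they used kallisto 0.46.1 and DESeq2. Which transcriptome and which build served is not given in the sources used here. Counts on 44 pseudoautosomal Y rows were added to their X copies and the estimates rounded. Gene lengths came from GENCODE 29, and promoters from RefSeq (GRCh38.p14). Depth ran from 14.3 to 38.8, in units of 1000000 counts, and limits the precision of genes below 1 CPM.

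Libraries with an olfactory receptor sum over 1.5 times the median of the 12 were set apart. The other 9 were fitted in R 4.3.3 with edgeR 4.0.16: its default low count filter, TMM factors, 1 mean per group, robust quasi-likelihood tests and an adjusted p (Benjamini-Hochberg over all genes tested) under 0.05. The 3 libraries set apart were scaled with the same reference library. The main edgeR fit was tested on simulated data, for the combination against vehicle alone. Standard errors come from the test statistic and the fold change, so they depend on the prior count at low counts. Alternatives were DESeq2 1.42.0, its size factors, limma-voom (limma 3.58.1), library size only, 2 other filters, all 12 libraries with and without the olfactory sum as a covariate, the replicate number as a block, the compared groups alone, and each library left out.

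The members, lists and tests were chosen with earlier results of these data known. Named with values in every library were genes called, 15 core members whatever their values, the 5 highest per kilobase, and in each comparison the 3 largest rises and falls at 1 CPM or more; other members were described after their values were seen. Some genes of the further lists are not reported here.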

Additional observations from a re-analysis of the deposited data

Results flagged for a closer look

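Listed genes with high values were counted in the 3 libraries of high background, which were outside the main comparisons. The number of listed genes above every one of the other 9 libraries reached 25 for olaparib 2, 23 for olaparib 3 and 21 for radiation 3, and 23 in both olaparib libraries at once. Of all genes with counts, 51.1%, 51.8%, 33.0% and 41.0% met the same conditions. The 23 genes are 47.9% of the 48 listed. None of these counts was tested against the share of all genes. RTP4, which had no counts in the 9 libraries, had 18 in olaparib 2, 23 in olaparib 3 and 1 in radiation 3.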

How the results depend on the processing

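Over 19 alternatives, 0 listed genes passed in radiation against vehicle or in the combination against radiation, and 0 over the 17 that could be fitted for olaparib against vehicle and for the interaction. In the combination against vehicle the number called was 1 in the reported fit, with DESeq2 and with the stricter filter. It was 0 with all 12 libraries (with or without the covariate), DESeq2 size factors, library size only, no low count filter, limma-voom and the compared groups alone, and between 0 and 1 with a library left out. With the replicate number as a block it was 0. That number did not pair the libraries: correlations between same-numbered libraries ran from -0.1 to 0.02, and 1494 genes were called with the block against 1485 without it.

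Scaling by library size alone moved the median of all genes in the combination from 0.02 to 0.22 and the calls from 475 higher and 1010 lower to 2275 and 319. Under radiation it moved them from 130 and 210 to 560 and 125. All genes called in the combination numbered 1 with all 12 libraries and 831 with the covariate. Elsewhere they ran from 0 to 685 under radiation (reported 340), 0 to 447 in the combination against radiation (176), 0 to 49 for olaparib (21) and 0 to 194 for the interaction (62). Depth limits the genes under 1 CPM, and the single olaparib library limits that comparison and the interaction.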

Other observations

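LAMP3 and DTX3L lay above every vehicle library in the combination, as did 9.15% of all tested genes. Both were chosen after their values were seen. In their class of further interferon-stimulated genes, CD274, below 1 CPM, also lay above. TRIM5, TRIM14, TRIM25, APOBEC3G and ZC3HAV1 of that class lay below every vehicle library, as did 10.4% of all tested genes. At an unadjusted p under 0.05 (edgeR) the class had 3 genes higher and 3 lower. LAMP3, a lysosomal membrane protein induced by interferon, was at 2.86, 1.52 and 1.98 CPM in vehicle, 1.73 in olaparib 1, 1.40 and 4.04 under radiation and 4.87, 3.90 and 4.89 in the combination. The log2 change was 1.11 (SE 0.357, adjusted p = 0.0553, edgeR), just outside the threshold. DTX3L, the ubiquitin ligase that partners PARP9, was at 4.04, 4.21 and 3.33 CPM in vehicle, 4.63 in olaparib 1, 5.47 and 5.28 under radiation and 6.38, 7.67 and 5.56 in the combination. Its log2 change was 0.76 (SE 0.261, adjusted p = 0.0803, edgeR). In olaparib 2, olaparib 3 and radiation 3 LAMP3 was at 2.94, 2.92 and 4.48 CPM and DTX3L at 7.08, 6.27 and 6.24.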
